A study of Mus musculus with 4 samples.

Results

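Cathepsins are the proteases of the lysosome, and cystatins are small proteins that block the active site of the cysteine cathepsins. The genes examined here were the cathepsins Ctss, Ctsb, Ctsc, Ctsd, Ctsh, Ctsl and Ctsz, the asparaginyl endopeptidase Lgmn (legumain), and the cystatins Cst3 (cystatin C) and Cst7 (cystatin F). They were chosen by name, and every probe set whose only gene symbol was one of these names was taken. All 10 genes were found, with 18 probe sets in all, among 17097 named genes and 45037 probe sets on the array. No filter on low values was applied, so none of the 10 was left out of the test.

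The study set sorted double-positive thymocytes, immature T cells with both CD4 and CD8 on their surface, of hCD2-iCre x Gfi1fl/fl mice against those of WT mice. Each label had 2 arrays, and the strain was C57BL/6 under both. The hCD2-iCre transgene places a codon-improved Cre recombinase under human CD2 control sequences, which are active in lymphoid cells, and Gfi1fl/fl is a floxed allele of the transcriptional repressor gene Gfi1. The labels give no age and no treatment, do not say that WT mice carried the recombinase, and do not state how many animals stand behind the arrays of a label. A p-value here sets a difference against the spread of these 4 arrays, which may be technical. That spread was drawn toward that of other genes of like signal (5 prior and 2 residual degrees of freedom).

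In a lysosome, cathepsins are made as inactive precursors and are activated by cleavage at acid pH. Cathepsin S and cathepsin L are known for trimming the invariant chain of MHC class II molecules, cathepsin S in B cells, macrophages and dendritic cells and cathepsin L in cortical thymic epithelium. Cathepsin C removes dipeptides from granzyme precursors and so activates them, legumain cuts after asparagine and helps to mature other cathepsins, and cystatin F is known as an inhibitor of cathepsin C in immune cells. Signals are given on the log2 scale of the deposited RMA values, a difference is hCD2-iCre x Gfi1fl/fl minus WT, and a gene was called at an adjusted p under 0.05 (limma, Benjamini-Hochberg over all 17097 genes, each gene by its brightest probe set).

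Before the results, the labels were checked against the arrays. Array medians ranged from 3.53 to 3.55 and lower quartiles from 2.97 to 3.02. Of 11 measured double-positive markers, all were above the array median on at least 1 array. The differences of 9 lay below 0, and the median was -0.215, next to -0.019 over all genes. The groups of 7 did not overlap, next to 34.5% of all genes. Only Dntt was called, lower by a difference of -0.69 (limma, adjusted p = 0.0413), and its call was lost without either WT array. Gfi1 itself gave 11.47 and 11.32 on the arrays labelled hCD2-iCre x Gfi1fl/fl, against 10.17 and 10.08 on those labelled WT (difference 1.27, limma, adjusted p = 0.00781, and 0.0501 without WT replicate 2). That is higher and not lower under the label of the floxed gene. The sources used here do not place its probe set relative to the deleted part, so every direction below is one between labels. The samples were bulk RNA, in which more cells of a type and more RNA per cell cannot be told apart.

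Ctss and Lgmn rose on the arrays labelled hCD2-iCre x Gfi1fl/fl, 2 of the 10 genes, and no gene of the set was called lower. Over all genes, 0.942% were called higher and 0.170% lower. The median difference of the 10 genes was -0.032, next to -0.019 over all 17097 genes. Of the 10 differences, 5 were above 0 and 5 below.

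**Figure D1:**
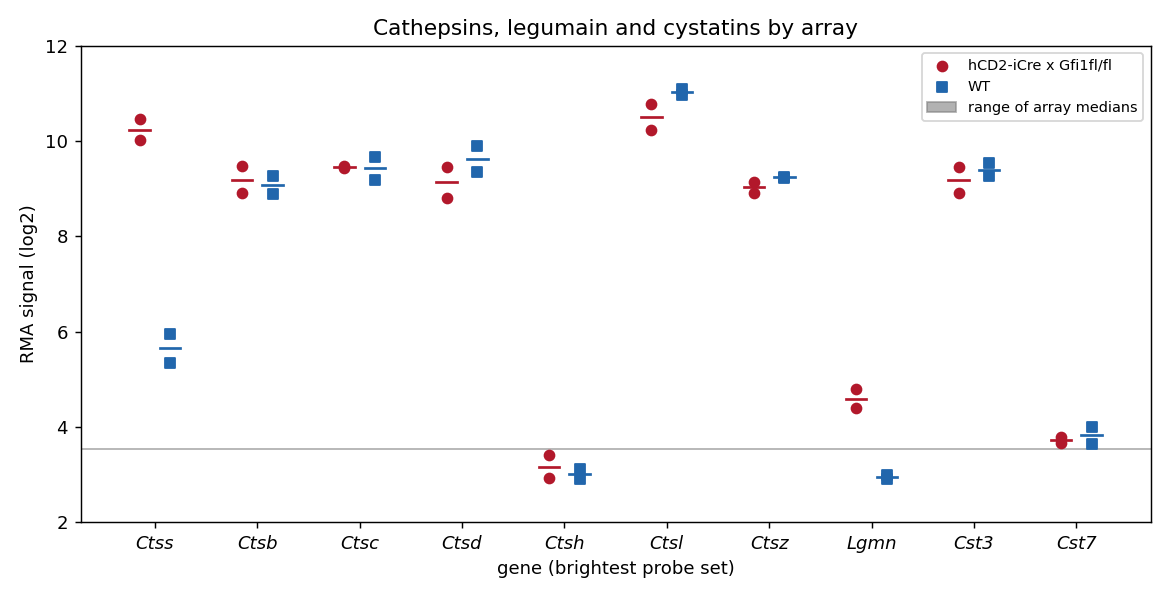
RMA signal (log2) of the 10 genes on each array, by the brightest probe set. Circles are the 2 arrays labelled hCD2-iCre x Gfi1fl/fl, squares the 2 labelled WT, short lines the group means, and the grey line spans the array medians (3.53 to 3.55). Ctss and Lgmn stand furthest apart between the labels. The other 8 genes were not called, though the groups of Ctsl and Ctsz did not overlap.

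Ctss, the cathepsin S gene, gave 10.46 and 10.03 on the arrays labelled hCD2-iCre x Gfi1fl/fl, against 5.96 and 5.34 on the arrays labelled WT. The higher WT array was still 4.07 below the lower hCD2-iCre x Gfi1fl/fl array, and the arrays of a label differed by at most 0.62. On the hCD2-iCre x Gfi1fl/fl arrays the probe set ranked above 95.8% of all probe sets at the least, and on the WT arrays it ranked above 66.5% and 71.4%. The group means were 10.24 ± 0.30 and 5.65 ± 0.44 (SD, n = 2 each), a difference of 4.59 ± 0.28 (SE) with a 95% interval of 3.92 to 5.26, or 24.1-fold (limma, adjusted p = 0.000906). Among all 17097 genes this was the difference of rank 12 by size. Leaving out any 1 array kept the call, with differences of 4.28 to 4.90 and adjusted p of at most 0.00232 (limma).

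Lgmn, the legumain gene, gave 4.80 and 4.39 on the arrays labelled hCD2-iCre x Gfi1fl/fl, against 2.98 and 2.92 on the arrays labelled WT. Its groups did not overlap, but the WT signals lay below the array medians, above 22.3% and 20.9% of all probe sets. The difference was 1.64 ± 0.18 (SE) with a 95% interval of 1.21 to 2.08, or 3.13-fold (limma, adjusted p = 0.00911). RMA compresses differences among dim signals, and no detection call was used here, so the fold is a ratio of signals and not of transcript amounts. The call was lost without WT replicate 1 (adjusted p = 0.0525, limma) or WT replicate 2 (adjusted p = 0.0640, limma), with differences of 1.68 and 1.61. Each of Ctss and Lgmn had 1 named probe set, so no second probe set of either gene was at hand to compare.

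The promoters of Ctss and Lgmn are shown because these were the genes called, and that of Ctsd because it carries the motif typical of lysosomal genes and its gene was not called. Sequences are RefSeq's (GRCm38.p6), 5′ to 3′ on the gene's strand, from 250 bases before the annotated start to 50 after it. The windows are chr3:95526536-95526835, plus strand, for Ctss, chr12:102439679-102439978, minus strand, for Lgmn, and chr7:142387778-142388077, minus strand, for Ctsd. Capitals mark the matches to the motifs described below.
Ctss: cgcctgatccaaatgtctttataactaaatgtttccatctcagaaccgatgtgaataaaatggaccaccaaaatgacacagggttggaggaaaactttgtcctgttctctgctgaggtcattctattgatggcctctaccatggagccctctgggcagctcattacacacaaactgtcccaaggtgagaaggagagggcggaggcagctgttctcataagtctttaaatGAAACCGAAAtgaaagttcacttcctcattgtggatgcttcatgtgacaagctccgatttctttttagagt
Lgmn: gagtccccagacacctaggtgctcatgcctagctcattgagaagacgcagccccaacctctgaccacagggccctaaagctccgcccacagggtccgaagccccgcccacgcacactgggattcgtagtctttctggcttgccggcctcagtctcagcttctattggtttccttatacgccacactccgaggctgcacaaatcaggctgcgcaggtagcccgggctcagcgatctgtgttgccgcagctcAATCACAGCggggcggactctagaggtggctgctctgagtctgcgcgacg
Ctsd: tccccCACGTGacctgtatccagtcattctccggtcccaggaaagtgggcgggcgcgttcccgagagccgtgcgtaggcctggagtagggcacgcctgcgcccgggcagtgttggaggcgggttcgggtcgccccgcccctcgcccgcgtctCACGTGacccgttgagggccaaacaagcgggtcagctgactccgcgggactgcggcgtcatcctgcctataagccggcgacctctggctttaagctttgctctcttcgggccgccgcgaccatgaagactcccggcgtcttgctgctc

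Promoter windows were found for 8 of the 10 genes, 9 windows in all since Lgmn has 2, and 5 motifs were searched on both strands, chosen with these sequences in view. The core of the interferon response element, GAAA followed by any 2 bases and GAAA again, was matched in the Ctss window and in no other of the 9. The match, GAAACCGAAA, starts 21 bases before the start site, and 3.44% of all 32851 promoter windows hold this motif. The core of the Gfi1 site, AATCAC, and its longer form AATCACNGC, which contains the core, were matched only in the first Lgmn window, at the start site itself, as AATCACAGC. Of all windows, 10.4% hold the core and 0.919% the longer form. CACGTG, the E-box within the element bound by TFEB, was matched in the windows of Ctsd (2 times) and Ctsl and in the second Lgmn window, against 7.15% of all windows. GTAAACA, a forkhead motif bound by FOXO factors, was in none of the 9 and in 3.65% of all windows. A match is a stretch of letters and not a binding site, and the arrays hold no measure of binding.

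No other cysteine cathepsin of the set was called in the fit of all 4 arrays. Ctsl, the cathepsin L gene, gave 10.78 and 10.24 on the arrays labelled hCD2-iCre x Gfi1fl/fl, against 11.10 and 10.97 on the arrays labelled WT. Its groups did not overlap, with WT higher, and the difference was -0.53 ± 0.20 (SE), with a 95% interval of -0.99 to -0.067 before adjustment (limma, adjusted p = 0.485). It was called without hCD2-iCre x Gfi1fl/fl replicate 1, in a fit with 1 array of that label left (difference -0.80, limma, adjusted p = 0.0234). The second Ctsl probe set gave 4.11 and 4.04 against 4.08 and 5.23 on the WT arrays, where only WT replicate 2 stood apart (difference -0.58).

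Ctsb, an abundant lysosomal endopeptidase gene, gave 9.47 and 8.91 on the arrays labelled hCD2-iCre x Gfi1fl/fl, against 9.27 and 8.90 on the arrays labelled WT, by its brightest probe set. The labels overlapped, and the difference was 0.11 ± 0.25 (SE), with a 95% interval of -0.48 to 0.69. The other 3 Ctsb probe sets differed by -0.23, -0.47 and -0.40 and were not called either (limma over all 45037 probe sets, adjusted p = 0.993, 0.678 and 0.717). The Ctsb probe sets thus disagreed in sign, and 2 of the 3 dimmer ones did not overlap between the labels.

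Ctsc, the gene of the granzyme-activating dipeptidase, gave 9.48 and 9.44 on the arrays labelled hCD2-iCre x Gfi1fl/fl, against 9.67 and 9.19 on the arrays labelled WT. The hCD2-iCre x Gfi1fl/fl arrays lay between the WT arrays, and the difference was 0.032, with a 95% interval of -0.45 to 0.52. The other 2 Ctsc probe sets lay below the array medians and differed by -0.16 and -0.058. Ctsz, the gene of the carboxypeptidase cathepsin Z, gave 9.13 and 8.92 against 9.26 and 9.22 on the WT arrays, a difference of -0.21 with a 95% interval of -0.64 to 0.21 (limma, adjusted p = 0.938). WT was higher without overlap at this probe set, but the other 2 Ctsz probe sets overlapped, with differences of -0.13 and -0.018.

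Ctsh, the gene of an aminopeptidase, gave 2.93 and 3.41 on the arrays labelled hCD2-iCre x Gfi1fl/fl, against 3.13 and 2.90 on the arrays labelled WT. All 4 values lay below the array medians and the labels overlapped, with a difference of 0.16 ± 0.17 (SE) and a 95% interval of -0.25 to 0.56 (limma, adjusted p = 0.972). Ctsd, the gene of the aspartic protease cathepsin D and the only member of the set that is not a cysteine protease or an inhibitor of one, gave 9.46 and 8.81 against 9.90 and 9.35 on the WT arrays. The labels overlapped, since WT replicate 2 lay below hCD2-iCre x Gfi1fl/fl replicate 1. The difference was -0.49 ± 0.28 (SE), and its 95% interval of -1.15 to 0.17 allows a fall of over 2-fold (limma, adjusted p = 0.798).

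Neither cystatin was called. Cst3, the gene of the secreted inhibitor cystatin C, gave 9.46 and 8.91 on the arrays labelled hCD2-iCre x Gfi1fl/fl, against 9.53 and 9.28 on the arrays labelled WT (difference -0.22, 95% interval -0.77 to 0.33, limma, adjusted p = 0.965). Cst7, the gene of cystatin F, gave 3.67 and 3.79 against 4.01 and 3.64 on the WT arrays, just above the array medians, with a difference of -0.095 and a 95% interval of -0.52 to 0.33. In both genes the labels overlapped.

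Across the 18 probe sets, 2 were called higher and none lower, those of Ctss and Lgmn. Over all 45037 probe sets, 0.664% were called higher and 0.102% lower. Of the 16 not called, 13 had a difference below 0 and 3 above, between -0.58 and 0.16. Some of these belong to the same gene and are not separate members. By gene, 5 of the 10 differences lay above 0, next to 44.6% of all genes. Taken by gene, the groups did not overlap for 4 of the 10 genes, Ctss and Lgmn higher and Ctsl and Ctsz lower, next to 34.5% of all genes.

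**Figure D2:**
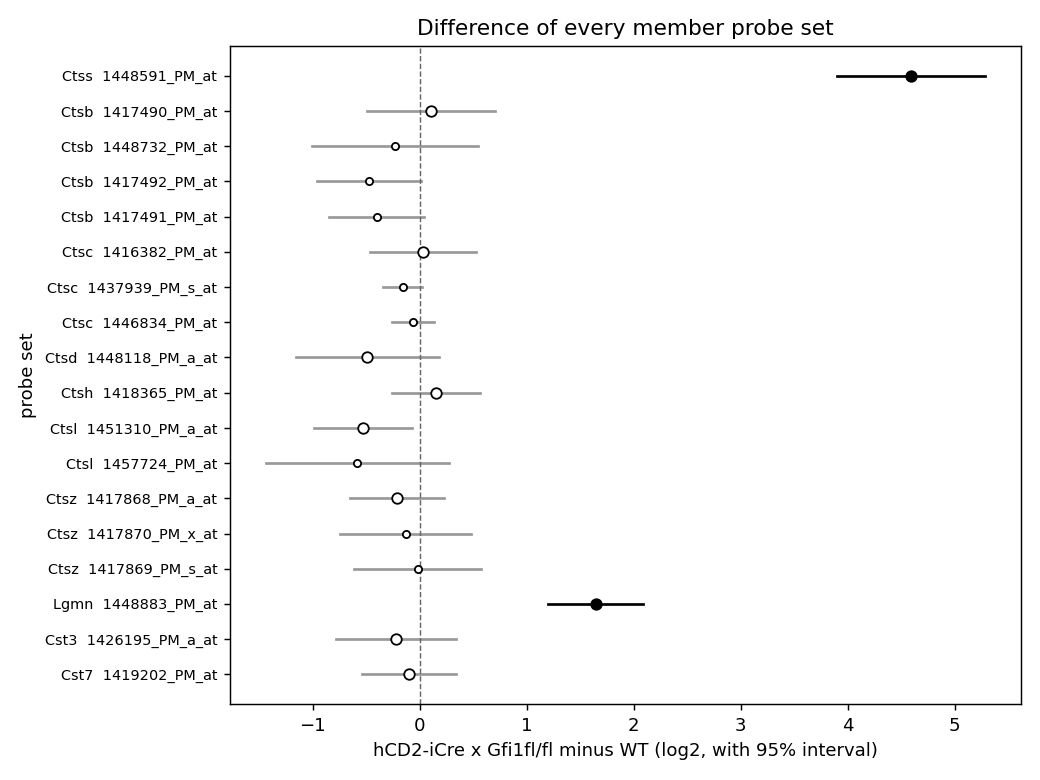
Difference between the labels (log2, hCD2-iCre x Gfi1fl/fl minus WT) for each of the 18 probe sets, with 95% intervals from limma over all probe sets. Larger points are the brightest probe set of a gene and filled points were called. The intervals of Ctss and Lgmn lie right of 0. The points of the 16 others lie between -0.58 and 0.16 and their intervals between -1.44 and 0.70, that of the brighter Ctsl probe set wholly left of 0 before adjustment.

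The arrays of a label also differed from each other in a common direction. Replicate 1 was above replicate 2 under both labels for 8 of the 10 genes, next to 35.9% of all genes. Ctsd gave the widest gap among the hCD2-iCre x Gfi1fl/fl arrays, 0.65, next to 0.55 between the WT arrays. Ctsh and Cst7, both dim, were the exceptions, with replicate 1 lower among the hCD2-iCre x Gfi1fl/fl arrays by 0.49 and 0.12. Of the 10 genes, 7 lay in the brighter 50% of all genes by mean signal, and in all 7 replicate 1 was higher under both labels, next to 36.0% of the genes in that range. In the related lists described below, this order held for 15 of 24 lysosomal membrane and sorting genes and 19 of 38 acid hydrolases. Among the other cathepsins it held for 4 of 15. The labels do not say what the arrays numbered 1 share, and its part in the differences was not tested. With the replicate number as a block, 2 members were called higher and none lower, as without it.

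**Figure D3:**
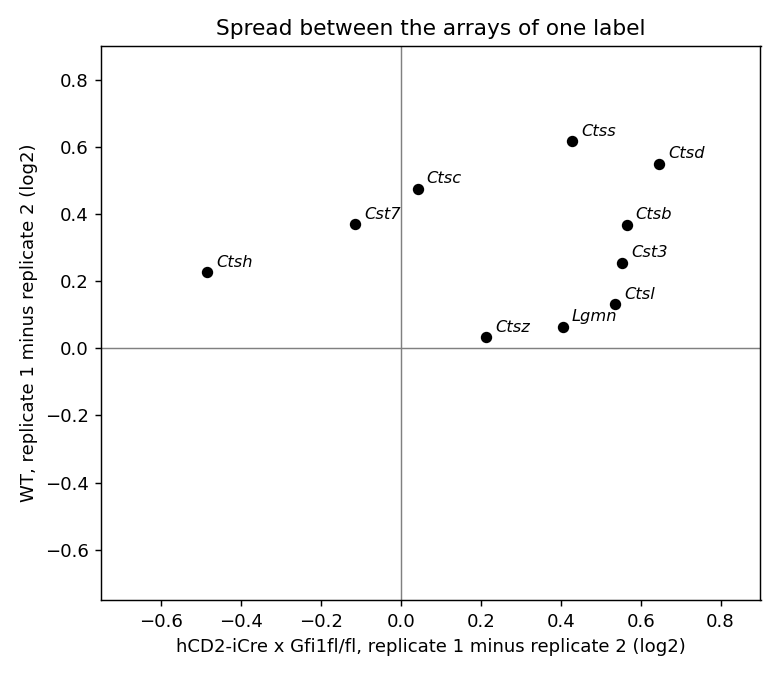
Gap between the 2 arrays of a label (log2, replicate 1 minus replicate 2) for each of the 10 genes, with hCD2-iCre x Gfi1fl/fl on the horizontal axis and WT on the vertical axis. In the upper right replicate 1 is higher under both labels, and 8 of the 10 genes lie there.

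The remaining lysosomal genes showed 1 rise and 1 fall. Of 38 measured acid hydrolases and their cofactors, 1 was called higher and none lower, with a median difference of -0.10. The one that rose was Gm2a, which encodes the activator protein that presents ganglioside GM2 to beta-hexosaminidase A. It gave 9.72 and 9.74 on the arrays labelled hCD2-iCre x Gfi1fl/fl, against 7.41 and 7.38 on the arrays labelled WT, a 5.05-fold difference (limma, adjusted p = 0.00209). Its groups lay 2.31 apart at the nearest, and the arrays of a label differed by 0.024 under the hCD2-iCre x Gfi1fl/fl label and 0.023 under the WT label. A second Gm2a probe set differed by 2.35 and was called (limma over all probe sets, adjusted p = 0.0295), and the third, near the array medians, differed by -0.017. The mean of all 3 differed by 1.56 and was called. Hexa, which encodes the alpha subunit of that hexosaminidase and is named here after its values were seen, gave 7.24 and 6.64 against 7.96 and 8.01 on the WT arrays (difference -1.04, limma, adjusted p = 0.199, and -1.34 with adjusted p = 0.0124 without hCD2-iCre x Gfi1fl/fl replicate 1).

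Of 24 measured lysosomal membrane and sorting proteins, 1 was called lower and none higher, with a median of -0.14. Abcb9, which encodes a peptide transporter of the lysosomal membrane, gave 4.41 and 4.10 on the arrays labelled hCD2-iCre x Gfi1fl/fl, against 6.57 and 6.39 on the arrays labelled WT (limma, adjusted p = 0.00920). Its groups did not overlap, and the other 2 Abcb9 probe sets differed by -1.91 and -1.05, of which the first was called (limma over all probe sets, adjusted p = 0.0297 and 0.283). None of 19 measured genes of the vacuolar ATPase, the proton pump that acidifies lysosomes, was called (median -0.028). The largest differences there were -0.63 for Atp6ap2 and -0.59 for Atp6v0a2 (limma, adjusted p = 0.180 and 0.407). Without hCD2-iCre x Gfi1fl/fl replicate 1, Atp6ap2 was called with a difference of -0.82 (limma, adjusted p = 0.0116).

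None of 15 measured genes of the TFEB family, the transcription factors of lysosomal genes, and of the lysosomal nutrient-sensing complex was called, with a median of -0.10. Tfe3 gave 7.46 and 7.04 on the arrays labelled hCD2-iCre x Gfi1fl/fl, against 6.41 and 6.10 on the arrays labelled WT (difference 1.00, limma, adjusted p = 0.223). Rragd, a Rag GTPase gene, differed by 0.83 (adjusted p = 0.303, and 0.0231 with a difference of 1.11 without hCD2-iCre x Gfi1fl/fl replicate 1), and Tfeb itself, named after its values were seen, by 0.74 (adjusted p = 0.105). These 3 had the largest differences of the list.

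**Figure D4:**
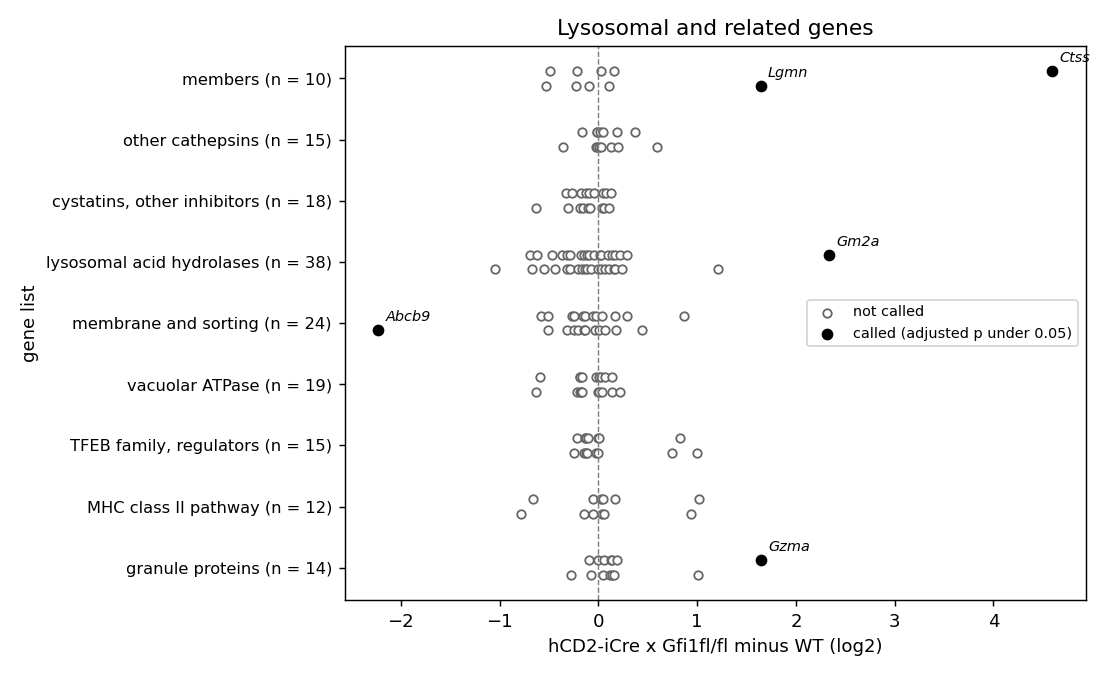
Difference between the labels (log2, hCD2-iCre x Gfi1fl/fl minus WT) for the genes of the set and of related lists, one point per gene, filled where called by limma. In each list most genes lie near 0, and Ctss, Gm2a, Lgmn, Gzma and Abcb9 are the ones called.

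Among the other 15 cathepsin genes of the mouse that were measured, none was called and the median was 0.013. Several of these are placental proteases in rodents, and 10 of the 15 lay below the array median on all 4 arrays. Ctsw, the cathepsin of cytotoxic lymphocytes, gave 6.61 and 6.58 on the arrays labelled hCD2-iCre x Gfi1fl/fl, against 6.14 and 5.87 on the arrays labelled WT (difference 0.59, limma, adjusted p = 0.578). Ctso differed by 0.38 (adjusted p = 0.628). Ctsk, the neighbour of Ctss on chromosome 3, differed by 0.023. Of the 3 protein-coding genes on either side of Ctss in RefSeq's order, 5 were measured and none was called, with differences of -0.11 to 0.24. The 6 neighbours of Lgmn on chromosome 12 were all measured, and none was called, with differences of -0.30 to 0.57.

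Of 18 measured cystatins and other cathepsin inhibitors outside the set, none was called and the median was -0.10. Serpinb6a, a serpin gene, differed by -0.63 (limma, adjusted p = 0.788) and Ctla2a, which encodes a cathepsin propeptide-like inhibitor, by -0.32 (adjusted p = 0.651). Of 14 measured granule proteases and granule proteins, among them the granzymes that cathepsin C activates, 1 was called higher and none lower. The differences of 11 of the 14 lay above 0, next to 44.6% of all genes, and the median of the 14 was 0.13. But 9 of the 14 lay below the array median on all 4 arrays. The gene called was Gzma, which gave 11.33 and 11.55 on the arrays labelled hCD2-iCre x Gfi1fl/fl, against 9.90 and 9.67 on the arrays labelled WT (limma, adjusted p = 0.00442), while Ctsc, the activating enzyme's gene, differed by 0.032. Prf1, the perforin gene, named after its values were seen, gave 5.38 and 4.41 on the arrays labelled hCD2-iCre x Gfi1fl/fl, against 4.04 and 3.73 on the WT arrays, without overlap. Its difference of 1.01 was not called (limma, adjusted p = 0.388), was 0.49 with the mean of its probe sets, and was called without hCD2-iCre x Gfi1fl/fl replicate 2 (adjusted p = 0.00421).

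Since cathepsin S is best known from antigen-presenting cells, the MHC class II pathway was read beside it. Of 12 measured genes of that pathway none was called, and the median was 0.033. Ifi30, the lysosomal thiol reductase gene, gave 6.38 and 6.73 on the arrays labelled hCD2-iCre x Gfi1fl/fl, against 5.78 and 5.30 on the arrays labelled WT (difference 1.02, limma, adjusted p = 0.255). H2-Oa, a chain of the class II modulator DO, differed by 0.94 (limma, adjusted p = 0.510), and without hCD2-iCre x Gfi1fl/fl replicate 2 by 1.46. H2-Ob and H2-DMa went the other way without overlap, by -0.66 and -0.78 (limma, adjusted p = 0.244 and 0.373). Of the 12 differences, 7 lay above 0 and 5 below.

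Markers of other cell types were read next, first those of myeloid, dendritic and B cells, from which cathepsin S is known. Of 13 measured myeloid and dendritic markers none was called, and 7 were below the array median on all 4 arrays. Their mean signal was 3.40 and 3.52 on the arrays labelled hCD2-iCre x Gfi1fl/fl, against 3.45 and 3.27 on the arrays labelled WT, so the labels overlapped. The largest differences were 0.51 for Lyz2 and 0.44 for Mpeg1 (limma, adjusted p = 0.718 and 0.667). Of 6 measured B cell markers none was called and 4 were below the array median on all 4 arrays, with means of 3.89 and 3.68 against 4.04 and 3.91 on the WT arrays. Cd79b, well above the medians, gave 7.41 and 6.28 on the arrays labelled hCD2-iCre x Gfi1fl/fl, against 8.26 and 7.88 on the arrays labelled WT. It differed by -1.23 and Ms4a1 by 0.19 (limma, adjusted p = 0.347 and 0.853). Without hCD2-iCre x Gfi1fl/fl replicate 1, Cd79b differed by -1.79. Of 9 thymic epithelial markers none was called, and 5 were below the array median on all 4 arrays. The differences of 5 lay above 0 and those of 4 below. Of those below, Krt8 differed by -0.30 and Ccl25 by -0.21, each without overlap between the labels. The means of the 9 markers were 4.51 and 4.36 against 4.27 and 3.99 on the WT arrays. Epcam and Cldn4, well above the medians, had the largest differences, 1.68 and 1.26 (limma, adjusted p = 0.163 and 0.204). Epcam was called with the replicate block (adjusted p = 0.0361), and both genes were called without hCD2-iCre x Gfi1fl/fl replicate 2, with differences of 2.15 and 1.54 (limma, adjusted p = 0.000485 and 0.00618). None of 6 mesenchymal and endothelial, 8 natural killer and gamma-delta and 4 erythroid and platelet markers was called. Below the array median on all 4 arrays were 4, 6 and 3 of them. The haemoglobin gene Hba-a1 gave 8.72 and 10.45 against 7.35 and 10.17 on the WT arrays, with replicate 2 higher under both labels. In the natural killer and gamma-delta list, 6 differences lay above 0 and 2 below. Nkg7 had the largest, 0.99 (limma, adjusted p = 0.214), and 1.42 or 0.57 without hCD2-iCre x Gfi1fl/fl replicate 1 or 2. The part of other cells in the Ctss signal was not tested.

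The genes most like Ctss over the 4 arrays were sought among the other called genes, by the Euclidean distance between profiles centred on their own means. Of 187 candidates, the nearest was Gpr183, an oxysterol receptor gene of lymphocyte migration, at a distance of 0.28. It gave 9.14 and 8.41 on the arrays labelled hCD2-iCre x Gfi1fl/fl, against 4.64 and 4.07 on the arrays labelled WT. Epha2 (an ephrin receptor gene, 0.44), Card6 (a caspase-recruitment domain gene, 0.45), Wfs1 (an endoplasmic reticulum membrane protein gene, 0.46) and Cd7 (a T cell surface protein gene, 0.68) followed in distance. All 5 had differences of 3.98 to 4.42, with adjusted p between 0.000906 and 0.00185 (limma).

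The genes most like Lgmn were Vangl2, a planar cell polarity gene, at a distance of 0.044, Kctd12b at 0.081, Fgd6 at 0.17, and Snx30, a sorting nexin gene, and Dst, the dystonin gene, at 0.19 each. Vangl2 gave 8.08 and 7.61 on the arrays labelled hCD2-iCre x Gfi1fl/fl, against 6.23 and 6.18 on the arrays labelled WT. The call of Vangl2 was lost with the replicate block (adjusted p = 0.0560, limma), as was that of Snx30 (0.0625). That of Vangl2 was also lost with the mean of its probe sets (difference 1.32, adjusted p = 0.0555), with all probe sets fitted together (0.0519) and, like every call, with the ordinary t statistic, so in all it was lost under 7 of 14 alternatives. Without WT replicate 1 or 2 the calls of all 5 were lost (adjusted p between 0.0833 and 0.190, limma). The call of Dst was also lost with the mean of its probe sets (difference 0.59, adjusted p = 0.0971), and those of Vangl2 and Kctd12b without the intensity trend (0.0548 each). A likeness over 4 arrays of 2 labels describes the size of the difference and the gaps between replicates and nothing more.

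**Figure D5:**
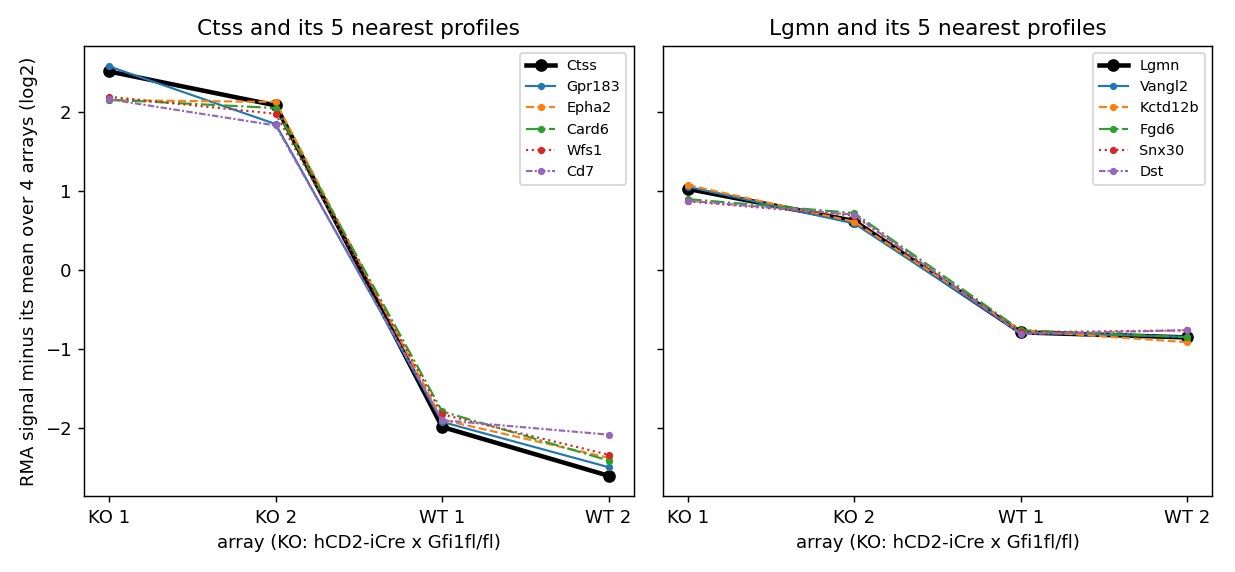
RMA signal (log2) minus its mean over the 4 arrays for Ctss (left) and Lgmn (right) with the 5 called genes nearest to each. The lines join the arrays of one gene and do not stand for a course in time. Ctss and its neighbours in profile are between 3.98 and 4.59 higher on the arrays labelled hCD2-iCre x Gfi1fl/fl (KO) than on WT arrays, and Lgmn and its neighbours between 1.55 and 1.68.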

How the data were processed

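RNA of sorted cells was labelled with biotin and hybridised to Affymetrix 3' arrays, 1 per sample, per the labels' protocols. The authors deposited log2 signals per probe set, made with RMA and Affymetrix Expression Console 1.1 per the submitters' processing notes, and these were used without further normalization.

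Of 45037 probe sets, 28898 had 1 gene symbol in the platform annotation, 551 had several and 15588 were not listed. They name 17097 genes, and the brightest probe set by mean signal stood for its gene. The test between the 2 labels was limma (version 3.58.1, R 4.3.3), by lmFit and then eBayes with a trend on intensity, two-sided, on all genes and with no covariate. The same fit over all 45037 probe sets served for the other probe sets of a gene. Simulated arrays with known changes were also fitted. Their noise was independent between arrays, so they do not cover gaps that replicates of both labels share. With 2 arrays per label, their number limits the precision. Figures were drawn with matplotlib 3.10.9.

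The members, the gene lists and the tests were chosen with earlier results of these data known. Named beside the members were, per list, up to 4 called genes with the largest difference, or the 2 largest differences where none was called, and the 5 nearest called profiles of Ctss and Lgmn, clone names left out. Alternatives were centring on the median, quantile normalization once more, leaving out 30% or 50% of probe sets by low mean signal, a prior that was robust or had no trend, the replicate number as a block, the mean of a gene's probe sets, all probe sets fitted together, an ordinary t statistic, and leaving out each array.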

Additional observations from a re-analysis of the deposited data

How the results depend on the processing

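Ctss was called under every alternative with limma's moderation (adjusted p of at most 0.0101), and Lgmn under all of these but those that left out 1 WT array. Over the 10 members and 10 alternatives other than leaving out an array, 95 of 99 values kept their direction and side of the threshold. The mean of all probe sets turned Ctsb to -0.25 and Ctsc to -0.061, neither called. With an ordinary t statistic 0 members, 0 member probe sets and 0 genes were called in either direction (limma calls 2, 2 and 190), although 1219 genes and 2 members had an unadjusted p under 0.05. Without the intensity trend 1 member probe set was called, and 18 genes were lower over all genes against 29. Median centring, the second quantile normalization, both filters, the robust prior and the fit of all probe sets together left the member counts at 2 higher and 0 lower. With 1 array left out, 1 to 2 members were called higher and 0 to 1 lower, 1 to 2 member probe sets higher, and 87 to 325 genes higher and 10 to 178 lower over all genes. Such a fit takes the lone array to vary like the other label's. In these fits Ctsb ranged from -0.18 to 0.39, Ctsc from -0.20 to 0.27, Ctsh from -0.087 to 0.40, Cst3 from -0.50 to 0.055, Cst7 from -0.28 to 0.089, Ctsk from -0.11 to 0.15 and the haemoglobin gene Hba-a1 from -0.58 to 2.24. The replicate block called 2 members higher and 0 lower, and 157 genes higher and 26 lower over all genes. The labels do not say that a number marks a shared animal or day, and across genes the gaps between replicates under the 2 labels correlated with r = 0.30. The cause of these changes was not tested. The signals of Ctsh on all arrays and of Lgmn on WT arrays lay below the array medians.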
